A study of Mus musculus with 21 samples.

Results

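Immediate-early genes are the first genes that a cell transcribes after a growth signal. Here 10 of them, chosen as genes that can respond to the kinase ERK, were followed through acquired resistance to a MEK inhibitor and its withdrawal. They were the zinc finger transcription factors Egr1, Egr2 and Egr3, the immediate early response genes Ier2, Ier3 and Ier5, the pleckstrin homology-like domain genes Phlda1 and Phlda2, and the transcription factors Srf and Klf10. The members were chosen by gene symbol and make up 10 of the 34478 genes of the deposited table. All 10 passed the filter on low values (10 or more normalized counts, in 3 samples or more), as did 19300 genes in all. RNA came from 6 murine pancreatic ductal adenocarcinoma (PDAC) lines, #3, #4, #6, #7, #9 and #10, each grown from the tumor of a separate mouse carrying Ptf1awt/Cre and Trp53loxP/loxP. In these mice Cre is expressed from the Ptf1a locus, a pancreatic gene, so that Trp53 is deleted there, and every sample of every group carries these alleles. Parental cells (6 samples, 1 per line) had never been treated. Resistant cells (6 samples) were raised under increasing doses of trametinib, an inhibitor of the kinases MEK1 and MEK2, and were held in the drug at 100 times the IC50 of their line, so that drug exposure and the resistant state cannot be told apart. P12 cells (6 samples) and P5 cells (3 samples, of lines #3, #7 and #9) were resistant cells passaged without the drug for 12 and 5 passages. For P5 of lines #7 and #9 a description label gives 12 drug-free passages where the group label gives P5, and the group label was followed.

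In the mitogen-activated protein kinase pathway, RAF activates MEK, and MEK phosphorylates ERK. Active ERK phosphorylates ternary complex factors of the ETS family such as ELK1, which sit with serum response factor (SRF) on CArG boxes in the promoters of immediate-early genes, so that transcription begins without new protein synthesis. Egr1, Egr2 and Egr3 are classical targets of this route and encode transcription factors that bind GC-rich sites. Ier2, Ier3 and Ier5 encode small proteins, of which IER3 is known to act on cell survival and on ERK dephosphorylation. PHLDA1 and PHLDA2 share a pleckstrin homology-like domain, and Phlda2 is an imprinted gene. KLF10 is a zinc finger repressor that is also induced early by TGF-beta.

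Promoter sequences are shown for all 5 members that have one, since the CArG box is the element by which SRF acts on such genes. RefSeq promoters (build GRCm38.p6, 250 bases before to 50 after a transcription start) were given for 5 of the 10 members, Egr2, Ier3, Ier5, Phlda2 and Srf, in 9 entries, of which 5 belong to Egr2. Egr1, Egr3, Ier2, Phlda1 and Klf10 had no entry. Each stretch runs 5′ to 3′ on the strand of the gene from base -150 to base -31 before the start site, with CArG boxes in capitals. Egr2 is read at chr10:67537719-67537838 (plus strand, in an intron of the longer Egr2 transcripts of GENCODE M21 and outside their exons). Srf is read at chr17:46556193-46556312 (minus strand, upstream of Srf and in an intron of the long noncoding RNA Gm26904 on the opposite strand). Phlda2 is read at chr7:143502555-143502674 (minus strand, overlapping 2 annotated Phlda2 transcripts and 1 exon). Ier3 is read at chr17:35821563-35821682 (plus strand, no annotated transcript) and Ier5 at chr1:155099667-155099786 (minus strand, no annotated transcript).
Egr2: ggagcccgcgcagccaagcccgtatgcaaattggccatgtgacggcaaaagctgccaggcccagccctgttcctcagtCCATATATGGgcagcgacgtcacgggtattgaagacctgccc
Srf: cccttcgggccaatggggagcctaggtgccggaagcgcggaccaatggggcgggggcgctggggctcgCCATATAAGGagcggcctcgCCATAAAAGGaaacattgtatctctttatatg
Phlda2: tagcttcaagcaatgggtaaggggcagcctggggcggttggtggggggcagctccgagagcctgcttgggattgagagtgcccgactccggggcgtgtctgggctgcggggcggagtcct
Ier3: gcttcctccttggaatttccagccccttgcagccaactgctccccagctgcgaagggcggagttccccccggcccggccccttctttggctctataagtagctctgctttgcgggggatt
Ier5: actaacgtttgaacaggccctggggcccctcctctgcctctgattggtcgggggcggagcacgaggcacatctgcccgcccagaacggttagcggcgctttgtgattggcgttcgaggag

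The CArG box, searched on both strands of the 300-base windows, was found in 1.63% of all 32851 promoters, and in 5 of the 9 member entries, which belong to Egr2 and Srf. The windows of Egr2 overlap, and 3 of its 4 entries with a box hold the same one, so that the 5 entries hold 2 distinct boxes at Egr2 and 2 at Srf. At the Egr2 start shown it lies at -72 to -63, and at Srf a first box lies at -82 to -73 and a second at -62 to -53. The ETS core CCGGAA was present in 14.9% of all promoters, at Srf at -122 to -117 and in 1 of the 5 Egr2 entries. The EGR site GCGNGGGCG was present in 5.55% of all promoters and among the members at Srf alone, at -101 to -93. The AP-1 site TGANTCA (7.81% of all promoters) and the cAMP response element TGACGTCA (1.79%) were in none of the 9 entries. None of these searched sites overlapped a CArG box in the stretches shown, and a match is a run of letters, not a measured binding site.

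Each value below is a normalized count, the count that the authors obtained with salmon and scaled between samples with DESeq2. Depth was estimated from the spacing of low values at 24.1 to 42.6 M reads per sample (M for mega). A floor of 3 reads, which allows for counting error alone, was worth 2.31 to 4.06 normalized counts. Of 7 ductal epithelial markers, Epcam was listed at 0 in 20 of 21 samples, whereas Krt7, Krt8, Krt18, Krt19, Cdh1 and Sox9 were above 0 in every sample. The summed level of the 7 genes ranged from 18363 to 283578 in parental, 1693 to 210019 in resistant and 3930 to 209595 in P12 cells, and line #9 held the lowest sum in each state. The summed level of 7 fibroblast markers, none of which was at 0 throughout a state, ranged from 106 to 22283 in parental, 1904 to 403049 in resistant and 232 to 153644 in P12 cells. In resistant against parental cells 1 ductal marker (Sox9) was called lower, and 1 fibroblast marker (Dcn) and 1 endothelial marker (Tek) were called higher. Of all tested genes 2.73% were called lower and 2.57% higher. With cell line as a block, 4 ductal markers were called lower and 3 fibroblast markers higher, against 5.6% and 4.85% of all tested genes. The summed level over all 21 samples ranged from 136 to 2892 for 5 leukocyte markers and from 15.8 to 2753 for 4 endothelial markers. For 4 acinar markers it ranged from 0 to 931. The highest leukocyte and endothelial sums were in resistant cells, but such a high sum can rest largely on 1 gene. Over all samples the leukocyte marker Csf1r reached 2530, where Cd68 reached 404 and Ptprc stayed lower still. The endothelial marker Tek reached 2512, where Pecam1 reached 74.0. The part of these marker shifts in the results below was not tested, and in bulk RNA fewer cells of a type and less RNA per cell cannot be told apart.

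The first comparison asked which immediate-early genes were expressed at a different level in cells growing under trametinib. Egr1, Egr3, Phlda1 and Phlda2 fell in resistant cells, by 3.12 on the log2 scale for Phlda1 (SE 0.33) and by 5.18 to 5.91 for the other 3 (SE 0.49 to 1.24, 6 samples per group), whereas the samples of both states overlapped for Ier3, Ier5, Srf and Klf10. A gene was called when limma, fitted to log2(normalized count + 1) of all 21 samples, gave an adjusted p under 0.01 together with a log2 fold change past 1 in size. By this rule 4 of the 10 members (Egr1, Egr3, Phlda1 and Phlda2) fell, against 2.73% of all tested genes, and 0 members rose, against 2.57%. At an unadjusted p under 0.05 the same limma fit gave 6 members lower and 0 higher, with and without cell line as a block, where 29.2% of all tested genes had such a p in either direction, and 37.8% with the block. The median log2 fold change was -2.29 over the members and -0.0049 over all tested genes. In 5 members (Egr1, Egr3, Ier2, Phlda1 and Phlda2) every resistant sample lay below every parental sample, which held for 3.16% of tested genes. In 6 members (these 5 and Egr2) the resistant sample was the lower of its line in all 6 lines, which held for 9.49% of tested genes.

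The second comparison asked which of these genes differed again after 12 passages without the drug. Egr1, Egr2, Egr3 and Phlda1 rose in P12 against resistant cells, 4 of 10 members against 1.28% of all tested genes, and 0 members fell, against 0.85%. At an unadjusted p under 0.05 limma gave 5 members higher and 0 lower, against 19.8% of all tested genes in either direction, and 6 and 0 with cell line as a block, against 27.2%. The median log2 fold change was 1.76 over the members and 0.02 over all tested genes. The P12 and resistant samples did not overlap in these 4 members, against 1.39% of tested genes, and in 6 members P12 was the higher sample of its line in all 6 lines, against 7.77%. The resistant samples enter both comparisons, so that a low resistant value lowers the first and raises the second. The third comparison, P12 against parental cells, gave 0 called members, against 0.114% of all tested genes. In that limma fit 4 members had an unadjusted p under 0.05 (Egr1 and Egr2 higher, Phlda1 and Phlda2 lower), against 15.3% of tested genes in either direction. When cell line was added as a block, 0 members were called (0.523% of tested genes) and 5 had an unadjusted p under 0.05 (23.8%). These were Egr1, Egr2 and Egr3, which were higher in P12, and Phlda1 and Phlda2, which were lower.

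**Figure D1:**
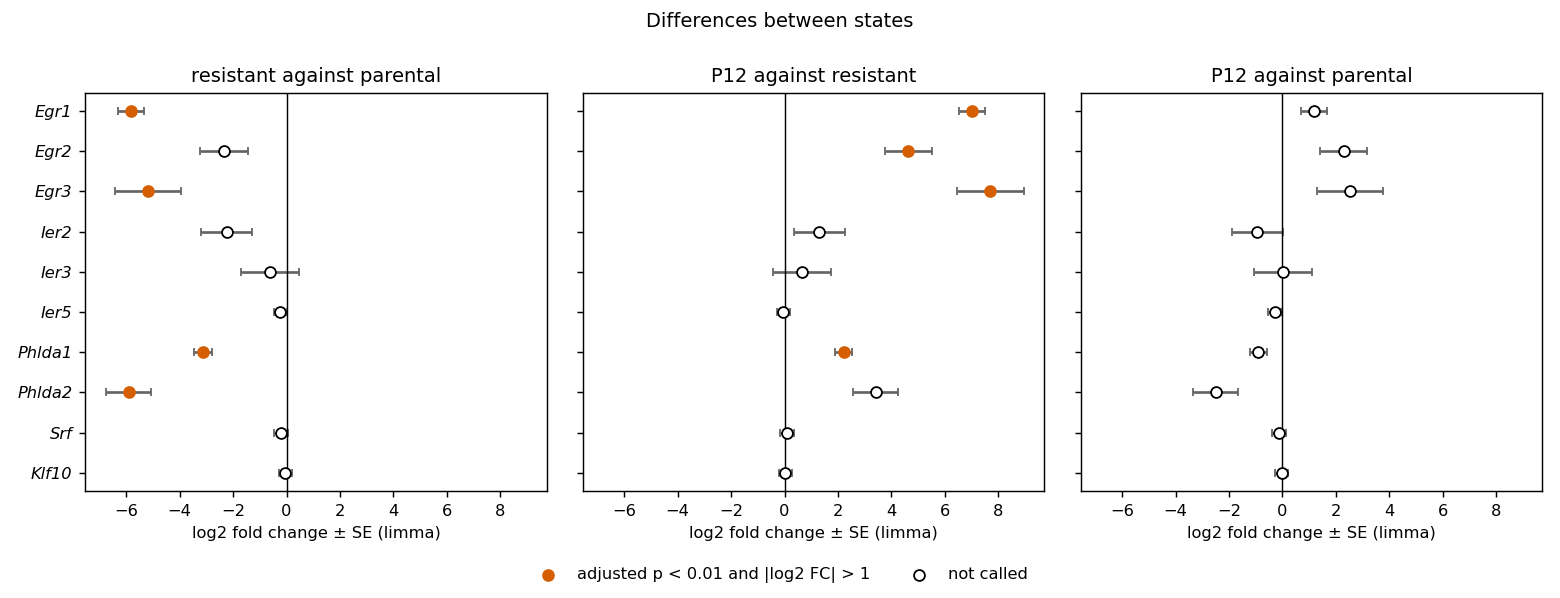
Log2 fold change of each of the 10 genes with its standard error (limma, 21 samples) for resistant against parental, P12 against resistant and P12 against parental cells, with called genes filled. Egr1 sits at -5.81 in the first panel and 7.01 in the second, and no gene is filled in the third.

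Egr1 encodes the founding member of the EGR family, whose transcript appears within minutes of ERK activation. Its normalized count in parental cells was 279 at the lowest, 462 at the median and 1894 at the highest. In resistant cells the lowest value was 3.57, the median 7.62 and the highest 27.7. The highest resistant sample, line #4, was thus still far below the lowest parental sample, line #10. Within a line the parental level was 11.9-fold higher than the resistant level in line #4 and 179-fold higher in line #9, and the other 4 lines lay between. The resistant values were above 3 reads but low, and in line #7 the 3.57 lay close to that floor of 3.06. The low resistant values limit how exactly the folds and log2 sizes of Egr1 are known. Egr1 fell by 5.81 on the log2 scale (SE 0.49, limma adjusted p = 7.89e-07). After withdrawal the P12 samples were at 795 at the lowest, 1146 at the median and 2191 at the highest. Egr1 rose by 7.01 on the log2 scale against resistant cells (SE 0.49, limma adjusted p = 3.62e-08), with within-line ratios from 41.9 in line #4 to 294 in line #10. P12 exceeded parental in 5 of 6 lines, the exception being line #9 with 1743 against 1894, and the log2 difference of 1.20 (SE 0.49) was not called (limma adjusted p = 0.244).

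Egr3, which is itself a target of EGR1 in several tissues, varied more between lines than Egr1. Parental values were 23.6 in line #3, 15.6 in #4, 81.8 in #6, 12.3 in #7, 1962 in #9 and 4.36 in #10. Line #9 thus stood far above the other 5 parental lines. Egr3 was listed at 0 in 5 of 6 resistant samples and at 1.08 in the sixth, line #6, so that all 6 were under 3 reads. Taking 3 reads as the floor of each resistant library, the parental level of line #9 was at least 522-fold higher, whereas the bound was 7.63-fold in line #3 and only 1.64-fold in line #10. Egr3 fell by 5.18 on the log2 scale (SE 1.24, limma adjusted p = 0.00874), a size that depends on the pseudocount because the resistant values are near 0. The call lay close to the threshold, and without any 1 of lines #3, #4, #6, #7 or #10 the adjusted p rose to between 0.0112 and 0.0378. In P12 cells Egr3 was at 1473 in line #3, 138 in #4, 78.4 in #6, 39.9 in #7, 2200 in #9 and 116 in #10. Each P12 sample exceeded every resistant sample, and Egr3 rose by 7.70 on the log2 scale (SE 1.24, limma adjusted p = 0.00114, and 0.0151 without line #3). P12 was above parental in 5 of 6 lines, with line #6 at 78.4 against 81.8, and the log2 difference of 2.53 (SE 1.24) was not called (limma adjusted p = 0.341).

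Egr2, which is best known for its role in Schwann cell myelination and in the hindbrain, was scarce in parental cells. Its parental values were 4.72, 3.04, 12.8, 7.42, 56.5 and 6.52 in lines #3, #4, #6, #7, #9 and #10. Resistant values were listed at 0 in lines #3, #4 and #9 and were 4.01, 1.91 and 3.70 in lines #6, #7 and #10. Egr2 was lower in the resistant sample of all 6 lines, but the groups overlapped and the log2 difference of -2.34 (SE 0.89) was not called (limma adjusted p = 0.0792). P12 values were 154, 73.0, 84.1, 6.22, 96.1 and 23.0 in the same order of lines. Only line #7 stayed near its parental level, and the other 5 lines exceeded theirs. Egr2 rose by 4.64 on the log2 scale in P12 against resistant cells (SE 0.89, limma adjusted p = 0.00377), and without lines #3, #4, #6 or #10 in turn the adjusted p was 0.0379, 0.0281, 0.0159 and 0.0118. Against parental cells the P12 difference of 2.30 (SE 0.89) was not called (limma adjusted p = 0.219). Egr4, the remaining family member, did not pass the filter and was at or near 0 in every state, with a highest value of 3.98.

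**Figure D2:**
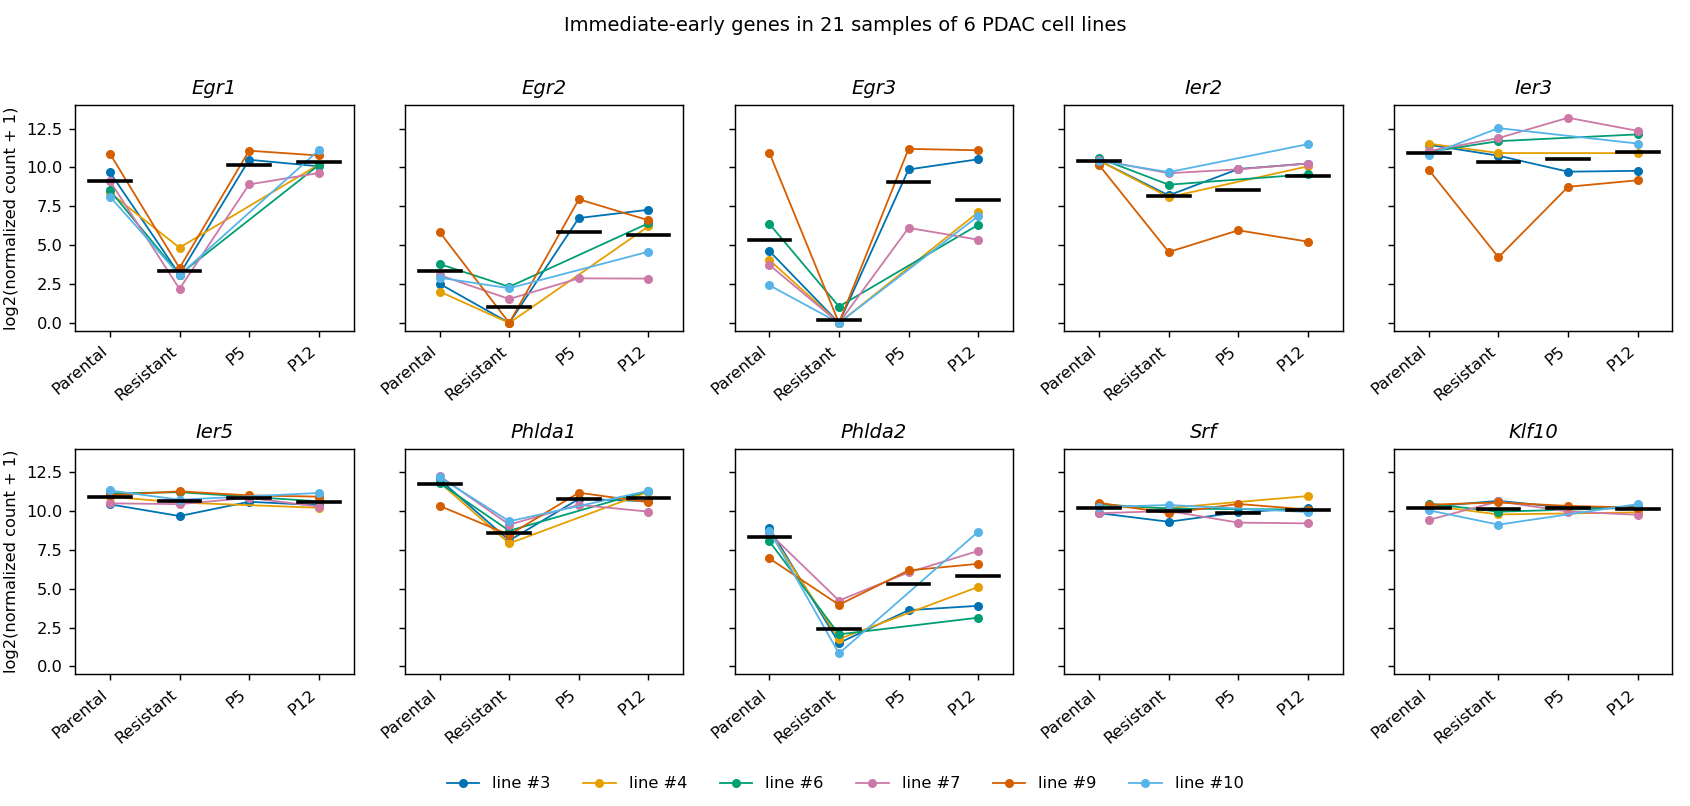
Log2(normalized count + 1) of the 10 genes in the 21 samples by state, with a line for each cell line (lines #4, #6 and #10 have no P5 sample) and a bar at the mean of the state. Egr1 drops in all 6 resistant samples and returns in all P5 and P12 samples, and the states overlap for Srf and Klf10. Ier2 of line #9 lies far under the other lines in resistant, P5 and P12 cells, and Ier3 of line #9 in resistant cells.

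Ier2 had the narrowest spread of the 10 genes in parental cells on the log2 scale, with 1134 at the lowest, 1387 at the median and 1546 at the highest. The resistant samples were at 293 in line #3, 271 in #4, 473 in #6, 789 in #7, 22.6 in #9 and 829 in #10. The highest resistant sample thus lay below the lowest parental sample, and line #9 stood apart from the other 5. The log2 difference of -2.24 (SE 0.95) was not called (limma adjusted p = 0.117), but Ier2 was called when cell line was a block (adjusted p = 0.00894, in a fit that called 5.6% of genes lower), and it was also called without line #9, at -1.57 (adjusted p = 0.00681). P12 values were 1218, 1074, 753, 1218 and 2890 in lines #3, #4, #6, #7 and #10, and 36.5 in line #9. P12 was above resistant in all 6 lines by 0.63 to 2.05 on the log2 scale, a difference that was not called (1.30, SE 0.95, limma adjusted p = 0.497).

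Ier3, also known as IEX-1, differed in opposite directions in different lines. Parental values were 2808, 2956, 2044, 2131, 919 and 1790 in lines #3, #4, #6, #7, #9 and #10. Resistant values were 1724, 1942, 3304, 3784, 17.7 and 5904 in the same order. Lines #3, #4 and #9 were thus lower and lines #6, #7 and #10 higher in the resistant sample, and the mean log2 difference of -0.62 (SE 1.08, limma adjusted p = 0.755) became 0.39 without line #9. In P12 cells Ier3 was at 878, 1935, 4462, 5220, 577 and 2965. Line #9 gained 4.95 on the log2 scale from resistant to P12, whereas the other 5 lines differed by 0.99 or less in either direction. The mean difference was 0.65 (SE 1.08, limma adjusted p = 0.806), and -0.21 without line #9.

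Ier5, which encodes a protein that is linked to the heat shock response, stayed within a narrow range. Its values ran from 1370 to 2540 in parental, 813 to 2447 in resistant and 1175 to 2276 in P12 cells, with medians of 1990, 1585 and 1443. The 3 groups overlapped throughout. The log2 differences were -0.24 for resistant against parental (SE 0.24, limma adjusted p = 0.563), -0.05 for P12 against resistant (SE 0.24, adjusted p = 0.945) and -0.29 for P12 against parental cells (SE 0.24, adjusted p = 0.599). In the last comparison Ier5 was lower in P12 in all 6 lines, as was Phlda2, 2 of 10 members against 6.96% of all tested genes.

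Phlda1, also known as TDAG51, was lower in the resistant sample of every line. Parental values were 4140, 3641, 3536, 4832, 1276 and 4583 in lines #3, #4, #6, #7, #9 and #10. Resistant values were 239 at the lowest, 387 at the median and 644 at the highest. Even the low parental sample of line #9 was above every resistant sample. Phlda1 fell by 3.12 on the log2 scale (SE 0.33, limma adjusted p = 9e-06), with the parental level 3.62-fold higher in line #9 and 7.11-fold to 15.2-fold higher in the other 5. In P12 cells Phlda1 was at 989 at the lowest, 1993 at the median and 2505 at the highest. It rose by 2.22 on the log2 scale against resistant cells (SE 0.33, limma adjusted p = 0.000541), with within-line ratios from 1.79 in line #7 to 10.1 in line #4. P12 was below parental in 5 of 6 lines, and the log2 difference of -0.90 (SE 0.33) was not called (limma adjusted p = 0.198).

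Phlda2 was present in all parental lines, with 476, 406, 262, 377, 122 and 422 in lines #3, #4, #6, #7, #9 and #10. In resistant cells it was at 1.84, 2.39, 3.18, 17.8, 14.6 and 0.784, and 4 of these 6 values, all but those of lines #7 and #9, were at or under 3 reads. In lines #7 and #9 the parental level was 21.2-fold and 8.35-fold higher. Phlda2 fell by 5.91 on the log2 scale (SE 0.84, limma adjusted p = 0.000159), a size that depends on the pseudocount. P12 values were 13.9, 33.6, 7.78, 171, 95.8 and 403. Line #10 came back to 403 against 422 in parental cells, whereas line #6 reached 7.78 against 262. Phlda2 was higher in P12 than in resistant cells in all 6 lines, but the groups overlapped and the log2 difference of 3.41 (SE 0.84) was not called (limma adjusted p = 0.0184, and 0.00878, which passes, when cell line was a block, in a fit that called 2.52% of genes higher). P12 was below parental in all 6 lines by 0.07 to 5.00 on the log2 scale, and this difference of -2.50 (SE 0.84) was not called (limma adjusted p = 0.159).

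Srf encodes the factor that is known to bind CArG boxes, of which 2 stand in its own promoter window. Its values ran from 922 to 1469 in parental, 630 to 1331 in resistant and 586 to 1984 in P12 cells, with medians of 1214, 1077 and 1086. The groups overlapped, and within a line the resistant sample differed from the parental by -0.67 to 0.15 on the log2 scale (mean -0.21, SE 0.26, limma adjusted p = 0.635). P12 against resistant gave 0.09 (SE 0.26, limma adjusted p = 0.892). Klf10 ran from 685 to 1416 in parental, 554 to 1600 in resistant and 859 to 1382 in P12 cells. It was higher in the resistant sample in lines #3, #7 and #9 and lower in the other 3, with a mean log2 difference of -0.05 (SE 0.24, limma adjusted p = 0.916). P12 against resistant gave 0.03 (SE 0.24, limma adjusted p = 0.973). The standard errors leave room for small differences in both genes, and these p-values do not show that their levels were equal.

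**Figure D3:**
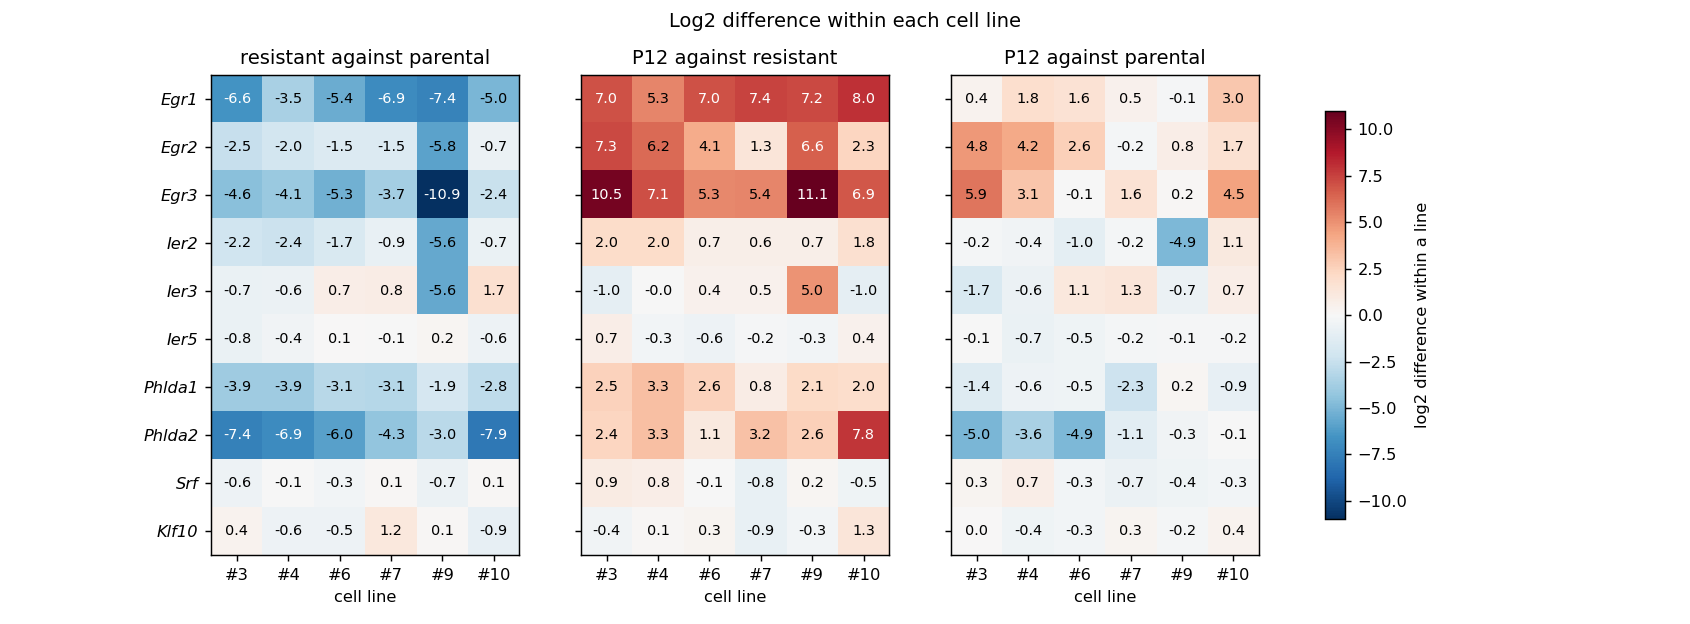
Log2 difference of each gene within each cell line, taken on log2(normalized count + 1), for resistant against parental, P12 against resistant and P12 against parental samples, on a shared color scale centred at 0. Egr1, Egr2, Egr3, Ier2, Phlda1 and Phlda2 are negative in all 6 lines of the first panel and positive in all 6 of the second.

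The 10 genes thus differed in how far their level varied with state or with cell line. Over the 18 samples of the states that all 6 lines share, differences between states held 94.1% of the sum of squares of Egr1 on the log2 scale, 84.7% of Phlda1, 75.2% of Phlda2, 71.3% of Egr3 and 68.9% of Egr2. For Ier2 the share of the state was 26.7% and that of the line 50.2%. The line share is taken from means over the states, so it also holds the low Ier2 values of line #9. That line was at 1134 in parental cells, near the other lines, but at 22.6 in resistant and 36.5 in P12 cells. For Ier3, Ier5, Srf and Klf10 the state held 2.72%, 8.60%, 4.86% and 0.283%, and the line 59.8%, 67.6%, 46.2% and 27.7%. These shares are descriptions, since 1 sample per line and state leaves the rest of the sum of squares to the line's own response and to noise alike. A line's own response can also enter the share of the line.

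**Figure D4:**
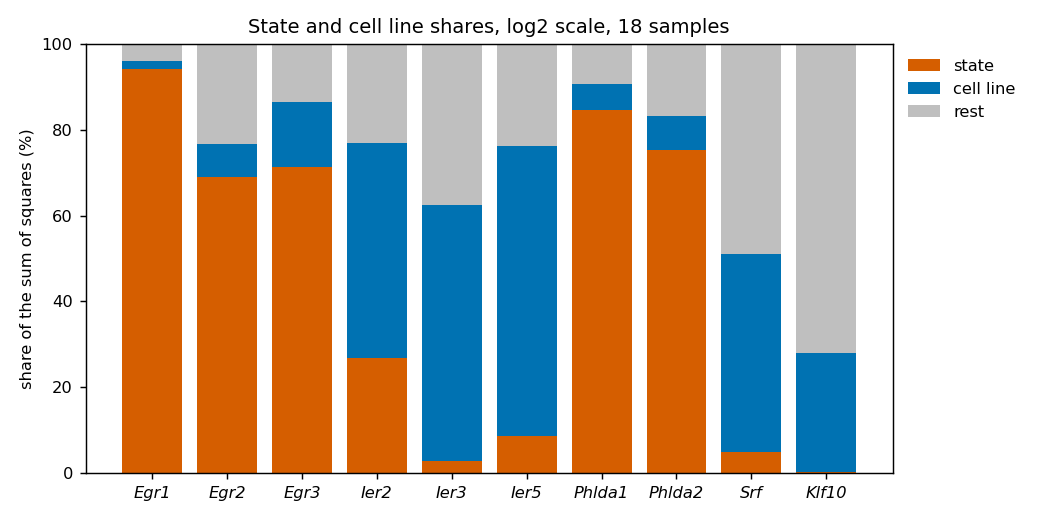
Share of the sum of squares of log2(normalized count + 1) over 18 samples that is held by the state, the cell line and the rest, in percent, for each of the 10 genes. The state takes 94.1% for Egr1 and 0.283% for Klf10, and the cell line takes the largest share for Ier2, Ier3 and Ier5.

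The 3 lines sequenced after 5 passages were compared with the resistant cells of all 6 lines in the same fit. Egr1 was at 1441 in line #3, 479 in #7 and 2159 in #9, all above every resistant sample. Egr3 was at 933, 68.3 and 2341, and Egr2 at 106, 6.30 and 246 in the same lines. In all 3 EGR genes line #7 was the lowest of the 3. Phlda1 was at 1741, 1340 and 2302 and Phlda2 at 11.3, 65.1 and 71.0. Egr1 (log2 6.85, SE 0.60, adjusted p = 1.9e-06), Egr3 (8.88, SE 1.52, adjusted p = 0.00454) and Phlda1 (2.17, SE 0.40, adjusted p = 0.00837) rose in the limma fit, 3 of 10 members against 0.29% of all tested genes. The Egr3 call was lost without line #3, #4, #6 or #10 (adjusted p up to 0.0686) and the Phlda1 call without any 1 of the 6 lines (adjusted p from 0.0121 to 0.0896), and Egr2 was not called (4.84, SE 1.08, adjusted p = 0.0241) but passed without line #7 (adjusted p = 0.00624). With cell line as a block the same 3 members were called, Egr1 at 6.76, Egr3 at 8.21 and Phlda1 at 2.40, against 0.435% of all tested genes. The P5 and resistant samples did not overlap in 4 members, Egr1, Egr2, Egr3 and Phlda1, against 3.02% of tested genes.

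In P5 cells Ier2 was at 953, 940 and 61.1 in lines #3, #7 and #9, and Ier3 at 847, 9370 and 431. Line #9 was again the lowest for both. Ier5 ran from 1536 to 2041, Srf from 606 to 1394 and Klf10 from 995 to 1277. Against parental cells 0 members were called in P5 by limma, with or without the block, against 0.0259% of tested genes in either fit. An unadjusted p under 0.05 was found for 4 members (Egr2 and Egr3 higher, Phlda1 and Phlda2 lower), against 10.4% of tested genes. With the block it was found for 3 (Egr2 and Egr3 higher, Phlda2 lower), against 14.4%. Ier2 and Phlda2 were below every parental sample in all 3 P5 samples, 2 of 10 members against 2.32% of tested genes.

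Other early genes and ERK outputs were counted from lists, to place the members among their relatives. For each list below, the shares to set beside a count of calls are those over all tested genes. These were 2.73% lower and 2.57% higher in resistant against parental cells, and 1.28% higher and 0.85% lower in P12 against resistant cells. Of 11 ERK feedback and ETS output genes, among them the phosphatases, Sprouty and SPRED proteins and PEA3 factors that restrain or relay ERK signals, 9 fell in resistant against parental cells and 0 rose, with a median log2 fold change of -3.89. Etv4 (-10.46), Spry4 (-8.27), Etv5 (-8.09) and Dusp4 (-7.80) had the largest falls of the list. In P12 against resistant cells 8 of 11 rose and 0 fell (median 3.84), with Etv4 at 11.35, Spry4 at 8.64, Dusp4 at 8.29 and Etv5 at 8.20. Of 8 AP1 genes, 3 fell in resistant cells (Fosl1 -5.88, Fos -2.44 and Fosb -1.96) and 2 rose (Atf3 2.48 and Fosl2 1.76, the smallest of the 5 calls), and in P12 against resistant cells Fosl1 rose by 4.90 and Fosl2 fell by 2.10. Fos, another classical early gene, was above 0 in every resistant sample, with values from 12.5 to 44.5 against 75.7 to 347 in parental cells.

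Of 12 other immediate-early transcription factors 11 were tested, and 2 rose in resistant cells (Klf2 2.78 and Csrnp1 2.28) while 0 fell. In P12 against resistant cells 0 of the 11 were called in either direction. Among 22 other early effectors, Errfi1 (-3.01), a feedback inhibitor of EGFR, and Plk3 (-1.51), a polo-like kinase, fell in resistant cells, and Gadd45b (2.53), a stress-induced gene, rose. In P12 against resistant cells Gem (3.37), Errfi1 (2.05) and Plk3 (2.00) rose and Gadd45b fell by 3.85. Of 8 SRF partners and EGR corepressors only Elk3, a ternary complex factor, passed, with -2.95 in resistant against parental and 2.95 in P12 against resistant cells. Of 12 cytoskeletal targets of SRF 1 rose in resistant cells (Zyx 1.92) and 0 fell, with a list median of 0.27, and 0 were called in P12 against resistant cells. The 4 tested relatives of the members (Ier5l, Phlda3, Klf9 and Klf11) and 7 heat shock genes gave 0 calls in both comparisons. In P12 against parental cells 0 genes of these lists were called, against 0.114% of all tested genes. At an unadjusted p under 0.05 the same limma fit gave, in P12 against resistant cells, 2 other early factors higher and 5 lower and 4 cytoskeletal targets lower, and for the relatives and the heat shock genes 0, against 19.8% of all tested genes. In resistant against parental cells 2 of 7 heat shock genes and 0 relatives had such a p, against 29.2% of all tested genes. Of the other early factors 4 were higher and 3 lower at that level there. In P12 against parental cells 6 of 7 heat shock genes were lower at that level, while AP1 genes and relatives gave 0, against 15.3% of all tested genes. Of the 22 early effectors 1 was higher and 3 lower, and of the ERK feedback list 2 were higher and 2 lower. The other early factors gave 2 higher and 1 lower, the cytoskeletal targets 1 and 2, and the SRF partners and EGR corepressors 1 and 0. With cell line as a block no named gene of these lists lost its call. In resistant against parental cells that fit called 4.85% of all tested genes higher and 5.6% lower. The calls there became 2 higher and 4 lower for the AP1 genes and 0 higher and 10 lower for the ERK feedback list. For the other early factors they became 2 higher and 2 lower, and for the effectors 2 higher and 4 lower. For the cytoskeletal targets they became 3 higher, and for the heat shock genes 1 in each direction.

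**Figure D5:**
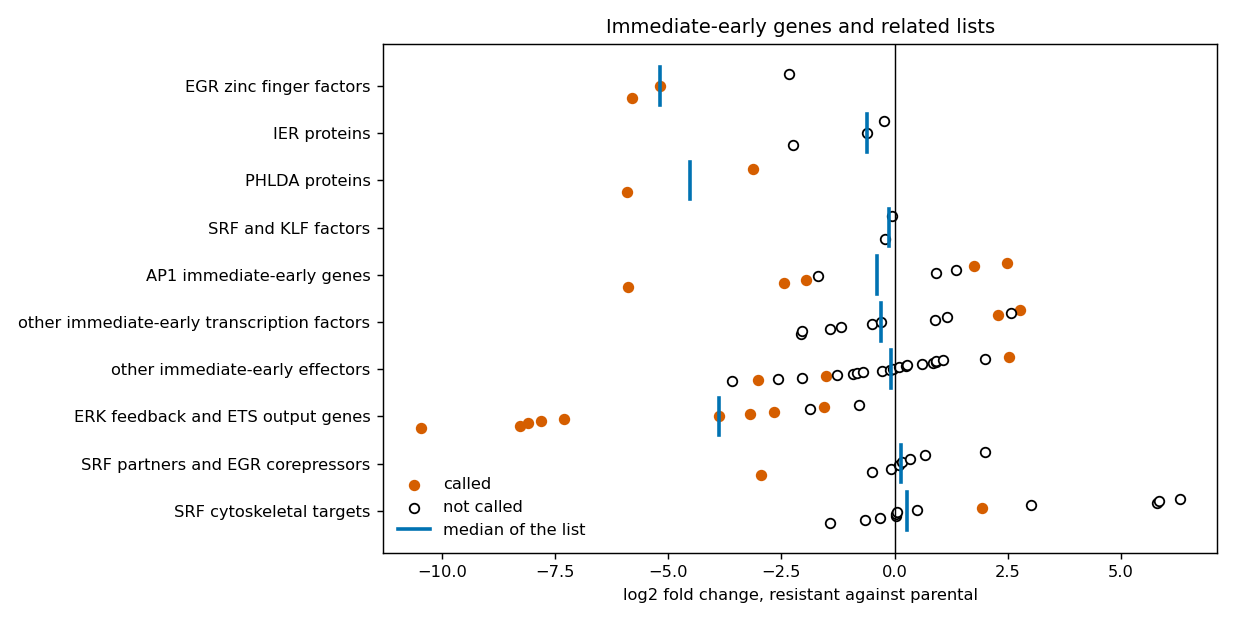
Log2 fold change of resistant against parental cells for the tested genes of each list, with 1 point per gene, called genes filled and a bar at the median of the list. The EGR and PHLDA genes lie to the left with the ERK feedback list, whose median is -3.89, and the medians of the other lists lie between -0.62 and 0.27.

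Genes with the most similar pattern were found by Pearson correlation of log2 values over the 21 samples, which share lines and states, and are given as a description. Egr1 was nearest to Etv4 (r = 0.958) and Etv5 (0.953), both PEA3 factors of the ETS family. Egr2 was nearest to Egr3 (0.916) and Etv1 (0.911), and Egr3 to Megf10 (0.944) and Cd300lb (0.943). Phlda1 was nearest to P2ry2 (0.886) and Iqgap2 (0.876), and Phlda2 to Npnt (0.944) and Cgref1 (0.929). The neighbors of the remaining members were Zdhhc15 (0.950) and Trim25 (0.943) for Ier2, Trmt112 (0.921) and Gpr39 (0.915) for Ier3, Gm2004 (0.797) and CAAA01147332.1 (0.766) for Ier5, Selenoh (0.864) and H1fx (0.833) for Srf, and Rack1 (0.711) and Eefsec (0.708) for Klf10. Between members, Egr1 and Egr3 gave 0.883, Phlda1 and Phlda2 0.787, and Ier2 and Ier3 0.719. With state means subtracted, Egr2 and Egr3 still gave 0.772 and Ier2 and Ier3 0.756, whereas Phlda1 and Phlda2 gave 0.0986.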

How the data were processed

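The deposited table holds signal values, normalized gene-level counts per the labels and the study's methods. The authors trimmed reads with Skewer, quantified them with Salmon 0.12, imported them with TXImport and normalized them with DESeq2 1.18, on libraries of a stranded mRNA kit (build mm10). Raw counts were not recovered, as only 40.4% to 67.5% of low values fell on whole steps. Log2 values used a pseudocount of 1. The differential test was limma 3.58.1 (R 4.3.3) over 19300 genes and 21 samples, 4 states, eBayes with trend and Benjamini-Hochberg adjustment over all tested genes. One further allele of the mice is not reported here. Members and lists were chosen with earlier results of these data known. All members were named, and of each list, in resistant against parental and in P12 against resistant cells, at most the 4 called genes with the largest change. Fosl2, named by this rule in the latter, is also given in the former. Same-numbered samples come from the same line, and their deviations correlated with r from 0.159 to 0.352 for resistant and parental, 0.337 to 0.520 for P12 and resistant, 0.00819 to 0.510 for P12 and parental, 0.495 to 0.537 for P5 and resistant and -0.0601 to 0.465 for P5 and parental cells. Sequencer models were not assigned to samples, so no within-batch comparison was made. Adgre1 and Prss1 of the marker lists were not analysed here. Figures used matplotlib 3.10.9. The test was checked on simulated data drawn without a shared effect of the cell line, so that the check does not cover the pairing of samples. Alternatives were other pseudocounts, filters, scaling, thresholds, fits and each line left out.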

Additional observations from a re-analysis of the deposited data

Results flagged for a closer look

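In 30 groups of 6 samples (10 genes in 3 states), 5 held a sample whose gap to its nearest neighbor on the log2(normalized count + 1) scale, relative to the range of the group on that scale, exceeded Dixon's 95% critical value for 6 samples. Chance flags about 1 in 20 groups. Of these samples 4 belong to line #9. Ier2 was at 22.6 in the resistant sample of line #9, where the other 5 lines ran from 271 to 829. It was at 36.5 in P12 of line #9, where the others ran from 753 to 2890. Ier3 was at 17.7 in the resistant sample of line #9, where the others ran from 1724 to 5904. Phlda1 was at 1276 in the parental sample of line #9, where the others ran from 3536 to 4832. The fifth was Egr3 at 1.08 in the resistant sample of line #6, where the other 5 were listed at 0, which is a value of about 1 read.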

How the results depend on the processing

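The number of called members kept within 1.5 times of its value under every alternative run, except as follows. In P12 against resistant cells 4 were called, 2 with a pseudocount of 8, and 2 to 4 with a line left out (2 without line #3). In P5 against resistant cells 3 were called, and 1 to 3 with a line left out (1 without line #3, #4, #6 or #10). With the cell line as a replicate block, 5, 5, 0, 3 and 0 members were called in place of 4, 4, 0, 3 and 0 (resistant against parental, P12 against resistant, P12 against parental, P5 against resistant, P5 against parental), and the block changed no call but those of Ier2 and Phlda2. Over all genes the block gave 2017, 872, 101 and 118 calls in the first 4 comparisons in place of 1023, 412, 22 and 73. Over all genes, the compared states only gave 93, 12, 14 and 1 calls in the last 4 comparisons in place of 412, 22, 73 and 5, the filter on a mean of at least 100 gave 5 and 3 against parental cells for P12 and P5, an adjusted p under 0.05 gave 2190, 947, 116, 376 and 9, and leaving out a line gave 456 to 1239, 132 to 459, 4 to 68, 23 to 48 and 1 to 5. In resistant against parental cells Egr3 did not pass in 4 settings, a pseudocount of 8 (-2.79, adjusted p = 0.106), no filter (0.0129), no trend (0.0105) and the compared states only (0.0111). In P12 against resistant cells a pseudocount of 8 ended the calls of Egr2 (adjusted p = 0.0145) and Egr3 (0.0140), and the compared states only that of Egr2 (0.0107). In P5 against resistant cells a pseudocount of 8 ended the call of Egr3 (0.0284), and no filter (0.0119), no trend (0.0114) and the compared states only (0.0561) that of Phlda1. The filter on a mean of at least 100 left Egr2 untested. The sign turned only in differences that were never called. With rescaling to the upper quartile, which moved the median of all genes from 0.02 to 0.11 in P12 against resistant cells, Ier5 was at 0.043 there and Klf10 at 0.023 in P12 against parental. With the block, Srf was at 0.10 and Klf10 at -0.051 in P5 against resistant, and Ier3 at 0.31, Ier5 at 0.093 and Klf10 at -0.10 in P5 against parental. With a line left out, the ranges that crossed 0 were -1.08 to 0.39 (Ier3) and -0.30 to 0.12 (Klf10) in resistant against parental, -0.21 to 0.97 (Ier3), -0.20 to 0.059 (Ier5), -0.062 to 0.27 (Srf) and -0.23 to 0.20 (Klf10) in P12 against resistant, -0.22 to 0.37 (Ier3) and -0.11 to 0.058 (Klf10) in P12 against parental, -0.25 to 0.99 (Ier2), -0.78 to 0.72 (Ier3), -0.43 to 0.20 (Srf) and -0.14 to 0.25 (Klf10) in P5 against resistant, and -1.69 to 0.29 (Ier3), -0.16 to 0.017 (Ier5) and -0.047 to 0.064 (Klf10) in P5 against parental. Fits with a line left out or with fewer states have fewer samples, and the cause of the other changes was not tested. Depth limits the size of folds for Egr2, Egr3 and Phlda2 in resistant cells, where most values were at or under 3 reads. Egr1 was above 3 reads in every resistant sample, but its low values there, from 3.57 to 27.7, also limit its folds.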

Other observations

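Genes within 200 kb of Ier2 and of Phlda2 (GENCODE M21, mm10) were looked at after the values of these members were seen. Around Ier2 (chr8:84661331-84662852, minus strand), 13 neighbors were tested, and in line #9, where Ier2 differed by -5.59 on the log2 scale between resistant and parental cells, theirs ran from -1.24 to 6.94. Gm26664, the nearest of them, was lower in the resistant sample of all 6 lines (-1.93 to -0.25), with 25.5 in parental and 10.2 in resistant cells of line #9. Trmt1 was at 4092 in parental and 3927 in resistant cells of line #9, and Nacc1 at 6938 and 5026. Around Phlda2 (chr7:143501545-143503150, minus strand), Slc22a18, which like Phlda2 is imprinted, was lower in the resistant sample of all 6 lines, by 1.16 to 6.81 on the log2 scale (limma -3.99, adjusted p = 0.0393), and was not called. Cdkn1c, another imprinted neighbor, differed in both directions between lines (limma adjusted p = 0.637), as did Cars and Gm38065. Nap1l4 (-0.731 to -0.114) and Tnfrsf26 (-1.37 to -0.428) were also lower in the resistant sample of all 6 lines. Such a pattern held for 9.49% of all tested genes. Farther away, Tnfrsf22 (-4.32, limma adjusted p = 2.2e-05) and Tnfrsf23 (-3.70, limma adjusted p = 0.00302), decoy receptors for TRAIL, fell in resistant cells.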
